A study of Mus musculus with 6 samples.

Results

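The genes Pf4, Itga2b, Serpine2, Slc6a4, Plek, Nfe2, Rab27b and F2r, all known from megakaryocytes and platelets, were followed in mouse blood progenitors that carried added Hhex, a homeobox transcription factor. They were picked by symbol, and 8 of 8 had a row among the 12161 genes of the deposited table. The cells were LSK cells, the lineage-negative, Sca1-positive and Kit-positive part of the bone marrow that holds stem cells and early progenitors, from C57BL/6 mice. The 3 control libraries came from cells with the retroviral vector MIG (genotype wild-type) and the 3 others from cells with MIG-Hhex (genotype Hhex). Cells of both groups met the retrovirus on retronectin, then grew for 2 days in medium with 10 ng/mL each of IL-3 (printed as mL-3 in the labels) and mIL-6 and 50 ng/mL each of mSCF and mFlt-3, and GFP-positive cells were sorted for RNA. The age of the mice and the number of mice per library are not stated in the labels.

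Megakaryocytes are the large marrow cells that shed platelets. They fill platelets with alpha granules, which hold proteins such as the chemokine PF4, and dense granules, which hold serotonin taken up from plasma. When thrombin cuts its receptors on the surface, G proteins and protein kinase C empty the granules and switch on the integrin αIIbβ3, which binds fibrinogen. The same genes are switched on in part in stem cells and early progenitors, and several are also used by mast cells, basophils and other myeloid cells.

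Values are log2 expression values as the authors normalized them. Differences are MIG-Hhex minus MIG on that scale from limma with a term for the flow cell. A gene is said to rise or fall where the p-value adjusted over all 12161 genes lay under 0.05, which was so for 18.0% of them. Replicates WT3, WT691 and WT703 each gave one MIG and one MIG-Hhex library, and both WT3 libraries were run on flow cell C3RJFACXX and the other 4 on C5LWPANXX. Hhex itself stood between 5.05 and 5.18 with MIG and between 7.61 and 9.34 with MIG-Hhex. Library medians were between 3.56 and 3.60. Of the LSK-defining genes, Kit, the stem cell factor receptor, was at 4.73 ± 0.12 with MIG and 4.56 ± 0.19 with MIG-Hhex (SD, n = 3). Ly6a, which encodes Sca1, was at 3.18 and 3.55 in the MIG and MIG-Hhex libraries of WT3 and between 5.89 and 6.25 in the other 4. The libraries of WT3 thus stood apart in a marker used for the sort, and the flow cell and the replicate cannot be told apart there. The series calls the replicates biological. These are bulk samples, so fewer cells of a type and less RNA per cell cannot be told apart.

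All 8 genes passed the test, 5 higher and 3 lower, where the share of all genes called was 9.44% higher and 8.52% lower. These genes were chosen with earlier results of these data known, so the choice was not independent of this count. The serotonin transporter Slc6a4 rose most, and Plek, Itga2b, F2r and Nfe2 rose by between 0.40 and 0.77. The protease inhibitor Serpine2, the small GTPase Rab27b and the chemokine Pf4 fell. The 8 genes thus moved in both directions. The MIG and MIG-Hhex libraries did not overlap for Slc6a4 and for the 3 genes that fell (4 of 8 genes, where 21.2% of all genes had groups without overlap). For Plek, Itga2b, F2r and Nfe2 they overlapped, although each of the 3 pairs moved up.

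**Figure D1:**
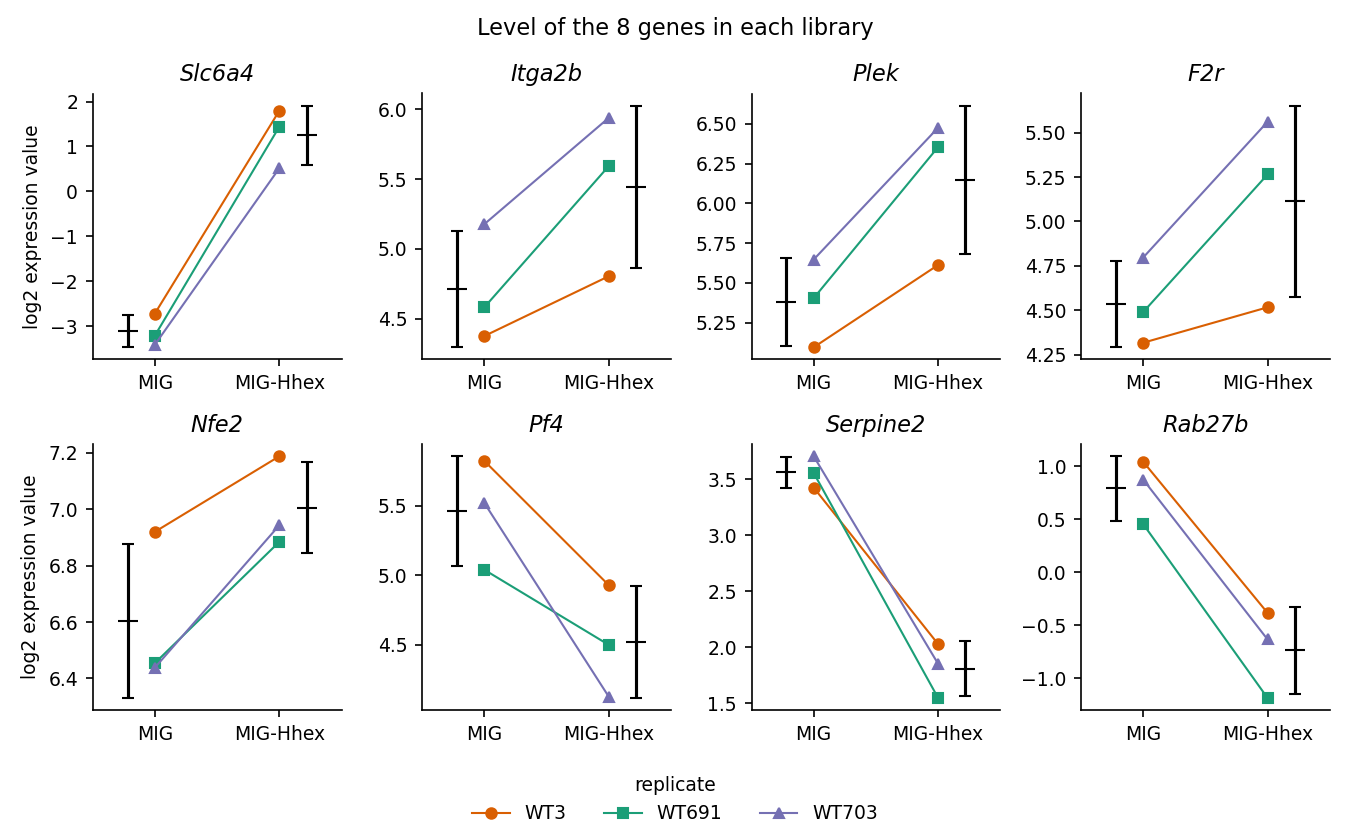
Log2 expression value (vertical axis, scaled separately for each gene) of the 8 genes in each MIG and MIG-Hhex library; lines join libraries of one replicate, and black bars give the group mean and SD of 3 libraries. Slc6a4 rose and Pf4, Serpine2 and Rab27b fell without overlap of the groups. WT3 libraries were the lowest of each group for Itga2b, Plek and F2r and the highest for Nfe2, Slc6a4, Pf4 and Rab27b.

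Slc6a4 encodes the sodium-coupled transporter that brings serotonin into platelets and neurons. Its log2 value was −2.72, −3.21 and −3.41 in the MIG libraries of WT3, WT691 and WT703. With MIG-Hhex it was 1.79, 1.44 and 0.51. Every MIG library lay well below 0 and every MIG-Hhex library above it. The difference was 4.36 (SE 0.32, 95% interval 3.60 to 5.12, limma adjusted p = 0.00118), 20.6-fold, and it came to 4.51, 4.65 and 3.93 in the 3 pairs. Since the MIG values were low, the size depends on the offset of the log2 scale, which is unknown. With an offset of 1 added to the linear values the difference was 1.62 (limma adjusted p = 0.00356).

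The gene lies on chromosome 11 from 76998597 to 77032343 in GRCm38.p6, on the plus strand. An unmeasured long noncoding gene on the other strand, Gm12343, overlaps it, and reads of both genes cannot be told apart where counting ignores strand; the strand setting is not stated. The measured neighbours on either side gave differences close to 0. Blmh, a cysteine protease that ends 11.2 kb before it, was at −0.02 and Nsrp1 (Ccdc55 in the table), a splicing factor 11.9 kb beyond it, at −0.04 (limma adjusted p = 0.826 and 0.776).

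Among other serotonin genes measured, 1 rose, 1 fell and 2 missed the threshold, where 18.0% of all genes passed. Slc18a2, the vesicular transporter that loads serotonin and other amines into granules, rose by 0.44 (SE 0.11, limma adjusted p = 0.0401), with MIG values of 3.43, 3.30 and 3.24 and MIG-Hhex values of 3.55, 3.92 and 3.84. Htr2a, the platelet serotonin receptor, fell by 1.26 (SE 0.24, limma adjusted p = 0.0184) from a low MIG mean of −0.30. Of 9 fits with 1 library or 1 replicate omitted, Slc18a2 lost its call in 6 and Htr2a in 7 (limma adjusted p up to 0.196 and 0.127). Because of the flow cell term, the 3 of these fits without replicate WT3 or either of its libraries give 1 and the same estimate for every gene, so the 9 fits hold 7 distinct estimates. Maoa, which degrades serotonin, differed by −0.13 and Slc22a3, an organic cation transporter, by 0.06, and neither passed (limma adjusted p = 0.348 and 0.849). The genes of serotonin synthesis, Tph1, Tph2 and Ddc, were not analysed here.

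Within the sodium-coupled transporter family of Slc6a4, 4 of 7 measured genes rose, Slc6a4 among them, 0 fell and 3 missed the threshold. Without Slc6a4, 3 of 6 rose, where 9.44% of all genes did. Slc6a9, a glycine transporter, rose by 1.14 (SE 0.18, limma adjusted p = 0.0107) from a low MIG mean of −0.43. The taurine transporter Slc6a6 rose by 0.37 (SE 0.05, limma adjusted p = 0.00581). In leave-out fits Slc6a9 lost its call in 2 of 9 and Slc6a6 in 1 of 9 (limma adjusted p up to 0.0725 and 0.0596).

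The wider dense granule list held 28 measured genes, of which 3 rose and 5 fell, while 20 missed the threshold (median difference −0.05). The median of all genes was −0.02, and 28.6% of the list passed, against 18.0% of all genes. Besides Slc6a4 and Slc18a2, Lyst, a regulator of lysosome-related granules, rose by 0.73. Rab32 and Rab38, the GTPases that steer cargo to these granules, fell by 0.89 and 0.48, and Dtnbp1, a subunit of the granule-sorting complex BLOC-1, by 0.50 (limma adjusted p = 0.0154, 0.0100, 0.0181 and 0.00755 in that order). Lyst and Rab38 lost their calls in 6 and 5 of 9 leave-out fits and Rab32 in 1, while Dtnbp1 kept its own (highest limma adjusted p 0.0712, 0.0795, 0.0528 and 0.0429).

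Itga2b encodes αIIb, the integrin chain also known as CD41 that marks megakaryocytes and early blood progenitors. It stood at 4.37, 4.58 and 5.18 in the MIG libraries of WT3, WT691 and WT703. In the MIG-Hhex libraries it was at 4.80, 5.59 and 5.94. The WT3 library with MIG-Hhex lay below the WT703 library with MIG, so the groups overlapped, but each replicate was higher with MIG-Hhex than with MIG, by 0.43, 1.01 and 0.76. The difference of 0.73 (SE 0.18, 95% interval 0.30 to 1.17, limma adjusted p = 0.0389) was 1.66-fold. The call was lost in 7 of 9 leave-out fits, in every one but those without replicate WT691 or its MIG library (limma adjusted p between 0.0243 and 0.0982 over the 9).

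Itgb3 encodes β3, the partner chain of αIIb, and is named here after its value was seen. It was at 2.89, 3.62 and 3.73 with MIG and at 3.34, 4.61 and 4.74 with MIG-Hhex, a rise of 0.81 (SE 0.12, limma adjusted p = 0.00926). Both chains of the fibrinogen receptor were thus higher with MIG-Hhex in every pair. The call of Itgb3 was lost in 1 of 9 leave-out fits (highest limma adjusted p 0.072).

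Of 31 measured genes of integrin activation, 9 rose and 4 fell (41.9%, against 18.0% of all genes). The other 18 missed the threshold, and the list median was 0.06. Parvb, an actin-linked partner of integrin-linked kinase, rose by 2.59 (SE 0.30), the adaptor Dok2 by 1.21 (SE 0.09) and talin, Tln1, which binds β integrin tails, by 0.45 (SE 0.07). Vinculin, Vcl, which couples talin to actin, fell by 1.72 (SE 0.08, limma adjusted p = 0.000528), from between 4.49 and 4.68 with MIG to between 2.76 and 2.99 with MIG-Hhex. Talin and vinculin, which bind each other, thus moved in opposite directions. Tln1 lost its call in 1 of 9 leave-out fits (limma adjusted p = 0.0628).

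Of 25 measured surface receptors of megakaryocytes and platelets, 10 rose and 1 fell (44.0%, against 18.0% of all genes), while 14 missed the threshold. P-selectin, Selp, the granule membrane protein shown on activated platelets, rose by 1.76 (SE 0.26), the tetraspanin Cd9 by 1.46 (SE 0.11) and the ATP-gated channel P2rx1 by 1.17 (SE 0.12). The ADP receptor P2ry1 fell by 0.60 (SE 0.10). Gp9, a chain of the von Willebrand factor receptor, rose by 0.94, and this call was lost in 9 of 9 leave-out fits (highest limma adjusted p 0.112). Gp1bb of the same receptor was at 0.38 and Vwf itself at 0.51, and neither passed (limma adjusted p = 0.521 and 0.0999). The median over the list was 0.18. P2ry1 lost its call in 4 of 9 leave-out fits (highest limma adjusted p 0.0864).

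F2r encodes PAR1, one of the receptors that thrombin cuts. It was at 4.32, 4.49 and 4.80 in the MIG libraries of WT3, WT691 and WT703 and at 4.52, 5.26 and 5.56 in the MIG-Hhex libraries. The WT3 library with MIG-Hhex again lay within the range of the MIG libraries. The difference was 0.58 (SE 0.15, 95% interval 0.22 to 0.94, limma adjusted p = 0.0434), 1.49-fold, with 0.20, 0.77 and 0.76 in the 3 pairs. It was lost in 6 of 9 leave-out fits, and the 3 in which it held, without replicate WT3 or either of its libraries, share 1 estimate of 0.77 (limma adjusted p between 0.0389 and 0.132 over the 9). Among the other protease-activated receptors measured, F2rl3 (PAR4) was at 0.12 and F2rl2 (PAR3) at −0.53, and neither passed (limma adjusted p = 0.596 and 0.182).

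Plek encodes pleckstrin, the main protein kinase C substrate of platelets. It was at 5.09, 5.40 and 5.65 with MIG and at 5.61, 6.35 and 6.48 with MIG-Hhex. Only the WT3 library with MIG-Hhex fell within the range of the MIG group. The rise was 0.77 (SE 0.10, 95% interval 0.52 to 1.01, limma adjusted p = 0.00582), 1.70-fold, and it held in 9 of 9 leave-out fits (highest limma adjusted p 0.0439).

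Of 35 measured genes of thrombin receptor signalling, F2r and Plek among them, 12 rose and 4 fell (45.7%, against 18.0% of all genes). A further 19 missed the threshold, and the list median was 0.15. Rap1gap2, which turns off the integrin-activating GTPase Rap1, rose by 2.24 (SE 0.29) from a MIG mean of −2.03. At such a low level the size depends on the unknown offset. The arrestin Arrb1 rose by 0.82 (SE 0.13). Rgs18, a brake on G protein signals in platelets, fell by 1.04 (SE 0.14), the G protein subunit Gnb1 by 0.31 and the phospholipase Plcb1 by 1.75 from a MIG mean of −0.89. The last 2 calls were lost in some leave-out fits, 3 of 9 for Gnb1 and 9 of 9 for Plcb1 (limma adjusted p up to 0.083 and 0.102).

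Itga2b, F2r and Plek had nearly the same profile over the 6 libraries. Likeness was measured as the root mean square difference between centred log2 values. It was 0.131 for Itga2b and F2r, 0.135 for Itga2b and Plek and 0.118 for F2r and Plek. Of all genes, 3 were nearer to Itga2b than F2r was, and 4 were nearer to it than Plek. In turn 10 genes were nearer to F2r than Itga2b was, and 19 were nearer to Plek than Itga2b was. In all 3 genes the WT3 library was the lowest of each group, by 0.33 to 0.50 under the mean of the other 2 with MIG and by 0.80 to 0.96 with MIG-Hhex. The profiles therefore share a replicate or flow cell difference as well as the vector difference.

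The promoters of 3 genes with this profile, and those of Slc6a4 and Pf4 as the strongest rise and a fall of granule genes, are shown for comparison. Each is the 250 bases before the RefSeq start of the gene in GRCm38.p6, 5′ to 3′. Capitals mark a GATA motif (AGATAA, also with T as its first base, G as its last, or both), the core shared by NF-E2 and AP-1 (TGAGTCA) or an ETS motif (AGGAAG, also with C as its first base) on either strand; no 2 marked motifs overlap.
Itga2b, chr11:102469884-102470133, minus strand: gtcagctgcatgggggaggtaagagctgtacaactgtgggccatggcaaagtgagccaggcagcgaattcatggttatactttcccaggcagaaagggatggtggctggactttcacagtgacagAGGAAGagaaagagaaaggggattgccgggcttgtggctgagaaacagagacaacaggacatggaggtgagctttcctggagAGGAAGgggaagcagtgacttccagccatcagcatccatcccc
F2r, chr13:95618467-95618716, minus strand: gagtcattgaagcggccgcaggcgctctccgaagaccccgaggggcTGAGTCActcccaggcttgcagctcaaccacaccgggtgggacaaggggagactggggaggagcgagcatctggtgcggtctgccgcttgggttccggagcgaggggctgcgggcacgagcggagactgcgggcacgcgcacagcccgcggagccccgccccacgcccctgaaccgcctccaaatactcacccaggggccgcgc
Plek, chr11:17008719-17008968, minus strand: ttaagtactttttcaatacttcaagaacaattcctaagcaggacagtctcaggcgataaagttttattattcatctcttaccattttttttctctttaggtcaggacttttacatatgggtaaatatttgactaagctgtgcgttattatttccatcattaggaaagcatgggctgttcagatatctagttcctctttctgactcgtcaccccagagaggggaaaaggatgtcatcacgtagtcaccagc
Slc6a4, chr11:76998347-76998596, plus strand: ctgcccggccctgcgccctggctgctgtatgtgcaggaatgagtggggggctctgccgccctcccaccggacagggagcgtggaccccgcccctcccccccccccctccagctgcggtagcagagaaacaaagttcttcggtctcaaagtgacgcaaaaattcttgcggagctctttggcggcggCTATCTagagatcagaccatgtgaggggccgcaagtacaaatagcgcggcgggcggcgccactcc
Pf4, chr5:90772185-90772434, plus strand: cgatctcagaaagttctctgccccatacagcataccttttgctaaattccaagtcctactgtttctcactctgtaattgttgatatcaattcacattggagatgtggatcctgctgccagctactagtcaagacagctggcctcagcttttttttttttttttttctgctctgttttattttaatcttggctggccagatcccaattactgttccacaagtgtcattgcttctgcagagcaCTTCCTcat
In the promoter of Itga2b 2 ETS motifs began 125 and 43 bases before the start, and in that of Pf4 there was 1, 9 bases before it. F2r held the NF-E2 and AP-1 core 204 bases before its start and Slc6a4 a GATA motif 65 bases before it. The Plek window held 0 of these motifs. Among 12324 promoter entries of 9699 tested genes, some of which have several starts, 17.3% had the GATA, 3.28% the NF-E2 and AP-1 and 47.1% the ETS motif in a window of this length. The 3 genes of like profile thus shared none of the motifs searched. Entries were matched for 6 of the 8 genes.

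Pf4 is the chemokine CXCL4, stored in alpha granules. It was at 5.82, 5.04 and 5.52 in the MIG libraries of WT3, WT691 and WT703 and at 4.93, 4.50 and 4.13 in the MIG-Hhex libraries. The lowest MIG library stood only slightly above the highest MIG-Hhex library. Pf4 fell by 0.94 (SE 0.15, 95% interval −1.29 to −0.59, limma adjusted p = 0.00943), 1.92-fold, and the 3 pairs gave −0.89, −0.54 and −1.39. The call held in 9 of 9 leave-out fits (highest limma adjusted p 0.0476). The gene spans 90772435 to 90773383 on chromosome 5.

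Of the 4 measured genes of this chemokine cluster, Pf4 alone passed the test (25.0%, against 18.0% of all genes). Ppbp, another platelet chemokine, ends 2.37 kb before Pf4 and differed by 0.91 (SE 0.39, limma adjusted p = 0.157). Cxcl3, 12.7 kb beyond Pf4, differed by −0.02 (SE 0.83), and Cxcl2 by 0.70 (SE 0.32; limma adjusted p = 0.989 and 0.178). In the WT3 libraries Cxcl3 stood at −1.28 with MIG and −4.18 with MIG-Hhex, and the other 4 libraries were between 0.45 and 2.32. The difference between Pf4 and its neighbours was not tested.

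Serpine2 encodes protease nexin-1, an inhibitor of thrombin and plasminogen activators that platelets also carry in alpha granules. Its MIG values were 3.43, 3.56 and 3.71 for WT3, WT691 and WT703, and its MIG-Hhex values 2.03, 1.55 and 1.85. Both groups were tight and far apart. Serpine2 fell by 1.76 (SE 0.15, 95% interval −2.11 to −1.40, limma adjusted p = 0.00162), 3.38-fold. It was the only one of the 8 genes besides Slc6a4 that also passed without the flow cell term (limma adjusted p = 0.0108 for both).

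Of 20 measured serpins and genes of plasminogen activation, 5 rose and 6 fell (55.0%, against 18.0% of all genes). The remaining 9 missed the threshold, and the list median was −0.30. Serpinb1a and Serpinb1b, inhibitors of neutrophil proteases, fell by 1.59 and 2.19 (limma adjusted p = 0.00575 and 0.00412). Serpina11 rose by 4.12, Serpina3g, an inhibitor of cysteine proteases, by 0.85 and Serpinf1, which encodes PEDF, by 0.74 (limma adjusted p = 0.00525, 0.00862 and 0.00523). The family thus moved both ways, and Serpina11 started from a MIG mean of −3.06.

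Of 23 measured genes of alpha granules and their formation, 6 rose and 3 fell (39.1%, against 18.0% of all genes). Another 14 missed the threshold, and the list median was 0.30. Those that fell were Pf4, Serpine2 and Thbs1, the adhesive protein thrombospondin-1, by 0.58 (SE 0.07). Nbeal2, which is needed to form alpha granules, rose by 0.70 (SE 0.08; limma adjusted p = 0.00431 and 0.00418 for Thbs1 and Nbeal2). Selp of the granule membrane rose as above. Lgals3bp, a secreted glycoprotein, rose by 0.68. The list thus held genes that passed in each direction.

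Rab27b is a small GTPase that docks granules for release in platelets and mast cells. It was at 1.04, 0.46 and 0.88 with MIG and at −0.38, −1.19 and −0.63 with MIG-Hhex, for WT3, WT691 and WT703. All MIG values lay above 0 and all MIG-Hhex values below. Rab27b fell by 1.53 (SE 0.24, 95% interval −2.09 to −0.96, limma adjusted p = 0.00937), 2.88-fold, with like values in the 3 pairs (−1.43, −1.64 and −1.51). With an offset of 1 before the log2 the fall was −0.77 (limma adjusted p = 0.00663). Its close relative Rab27a, chosen after its value was seen, was at 6.23 with MIG and 6.04 with MIG-Hhex and did not pass.

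Among 27 measured genes of the RAB27 release machinery, 6 rose and 3 fell (33.3%, against 18.0% of all genes). The other 18 missed the threshold, and the list median was 0.13. Sytl1, a synaptotagmin-like effector of RAB27, rose by 1.83 (SE 0.19), the tethering factor Unc13d, which is Munc13-4, by 0.49 (SE 0.06) and Rab3d by 0.57 (SE 0.08). Stxbp5, tomosyn, which binds syntaxins, fell by 1.23 (SE 0.10) and the syntaxin partner Stxbp3 by 0.36 (SE 0.07). Of these 5, Stxbp3 lost its call in 9 of 9 leave-out fits and the others in 0 of 9 (limma adjusted p up to 0.119).

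Serpine2 and Rab27b were alike over the libraries, with a root mean square difference of 0.258, and 22 genes were nearer to Serpine2 than Rab27b was. Markers of mast cells and basophils moved as well. Of 12 measured, 3 rose and 4 fell (58.3%, against 18.0% of all genes). On the log2 scale the list's summed level ran from 10.20 to 10.88 with MIG and from 10.47 to 11.12 with MIG-Hhex. Serglycin, Srgn, a proteoglycan of many granules that is also in the alpha granule list, made up between 72.6% and 83.8% of the linear sum. Without Srgn the sum ran from 8.09 to 9.01 with MIG and from 7.90 to 8.50 with MIG-Hhex. The granule proteases Cpa3 and Mcpt8 fell by 2.19 (SE 0.22) and 1.12 (SE 0.11), while Hdc, the histamine-forming enzyme, named after its value was seen, rose by 1.35 (SE 0.22). Srgn and Il1rl1 of the same list, also named after their values were seen, rose by 0.41 and 0.71 (limma adjusted p = 0.0177 and 0.00528). The call of Srgn was lost in 7 of 9 leave-out fits (highest limma adjusted p 0.114). Cd200r3, a basophil receptor, and Ms4a2, a chain of the IgE receptor, both named after their values were seen, also fell. Cd200r3 fell by 3.62 (SE 0.47, limma adjusted p = 0.00523), from a low MIG mean of −0.28 to −3.90 with MIG-Hhex. Ms4a2 fell by 1.52 (SE 0.30, limma adjusted p = 0.0183) and lost its call in 4 of 9 leave-out fits (highest limma adjusted p 0.0925). Fcer1a, another chain of the IgE receptor, differed by −2.35 and missed the threshold (limma adjusted p = 0.0597), which it passed in 4 of 18 alternatives (lowest limma adjusted p 0.00734). Their part in the falls of Rab27b and Serpine2 was not tested.

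Nfe2 encodes p45 NF-E2, the transcription factor that drives platelet release. Its values were 6.92, 6.45 and 6.44 with MIG and 7.19, 6.88 and 6.94 with MIG-Hhex for WT3, WT691 and WT703. Here the WT3 libraries were the highest of each group, unlike for Itga2b, Plek and F2r, and the MIG library of WT3 lay inside the MIG-Hhex range. The rise was small and even, 0.40 (SE 0.06, 95% interval 0.26 to 0.55, limma adjusted p = 0.00862), 1.32-fold, with 0.27, 0.43 and 0.51 in the pairs. Its call did not hold without replicate WT703 (limma adjusted p = 0.0728) but held in the other 8 leave-out fits.

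NF-E2 works as a pair of p45 with a small Maf protein. Of the 8 measured genes of the p45 family, the small Mafs and the BACH repressors, 3 rose, 0 fell and 5 missed the threshold. Those 3 were 37.5% of the list, against 18.0% of all genes. Maff rose by 0.64 and Mafg by 0.24, and these calls were lost in 8 and 9 of 9 leave-out fits (highest limma adjusted p 0.117 and 0.146). Mafk was at −0.02, Nfe2l1 at −0.08, Nfe2l2 at 0.02, Bach1 at 0.29 and Bach2 at −1.97, and none of the 5 passed (limma adjusted p between 0.0632 and 0.885). Bach2 passed in the fit with a block for the replicate (limma adjusted p = 0.0499) and Bach1 with a GC trend removed from each library (limma adjusted p = 0.0300).

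Of 29 measured regulators of the megakaryocyte line and of progenitors, 9 rose and 3 fell (41.4%, against 18.0% of all genes). A further 17 missed the threshold, and the list median was 0.02. Zfpm1 (FOG1), the partner of GATA1, rose 2.01-fold (SE 0.11 on the log2 scale), the corepressor Cbfa2t3 (ETO2) by 0.95 (SE 0.14) and Gata1 by 0.71 (SE 0.12). The homeobox gene Meis1, which acts in stem cells, fell by 0.79 (SE 0.13) and Lyl1 by 0.29 (SE 0.05). Gata1 lost its call in 4 of 9 leave-out fits, Meis1 in 3, Lyl1 in 6 and Cbfa2t3 in 1 (limma adjusted p up to 0.100, 0.0584, 0.0725 and 0.0677). Gata2 was at 0.31 and missed the threshold (limma adjusted p = 0.0935). It passed in the fits without replicate WT3 or either of its libraries, with 1 shared estimate of 0.48 (lowest limma adjusted p 0.0160).

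Of the proplatelet cytoskeleton, 4 of 19 measured genes rose and 1 fell (26.3%, against 18.0% of all genes). Another 14 missed the threshold, and the list median was 0.07. Actn1, an actinin of stress fibres, rose by 0.76 (SE 0.07, limma adjusted p = 0.00176), while filamin, Flna, and the myosin Myh9 rose by 0.33 and 0.30 and lost their calls in 6 of 9 leave-out fits each (highest limma adjusted p 0.0732 and 0.128).

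**Figure D2:**
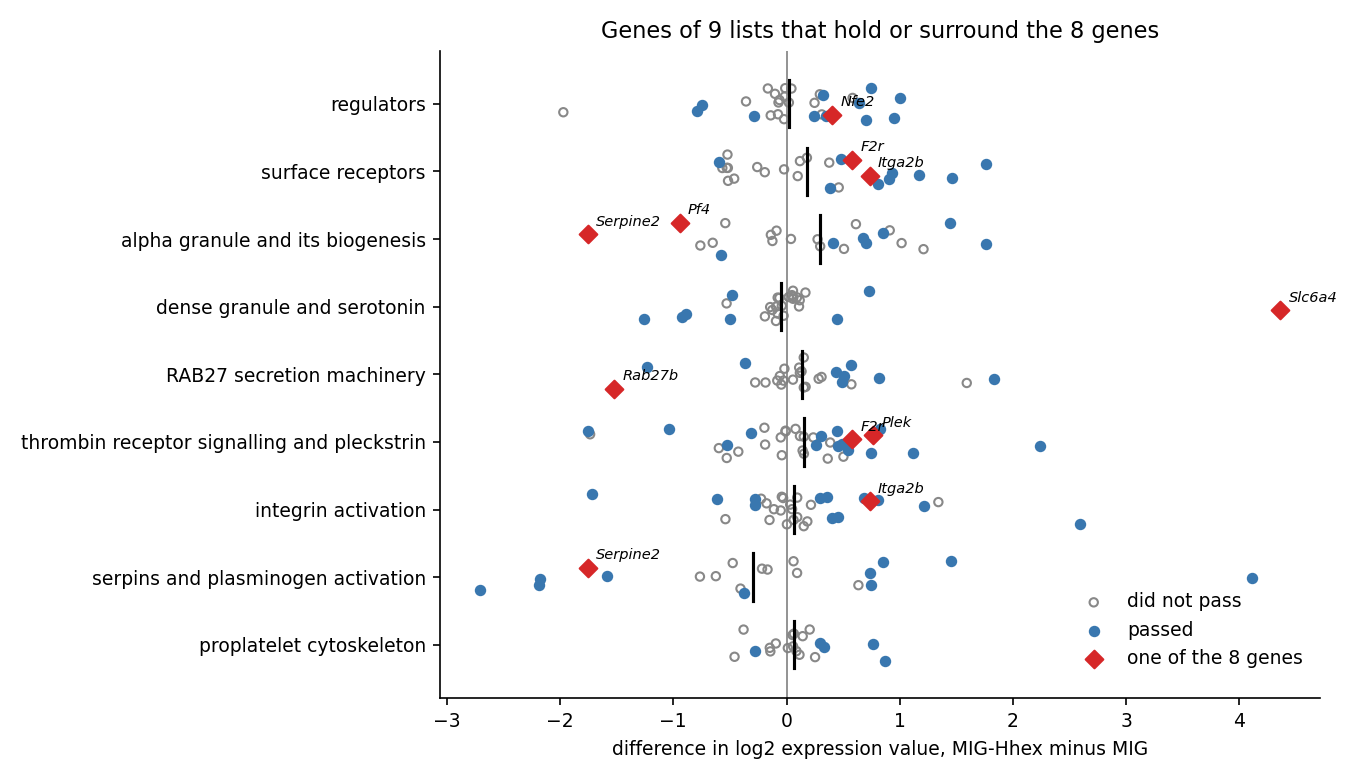
Difference in log2 expression value, MIG-Hhex minus MIG (horizontal axis), of each measured gene in 9 lists; filled points passed the test, open points did not, red diamonds are among the 8 genes, and black bars are list medians. Slc6a4 stood apart at 4.36, and list medians lay between −0.30 and 0.30.

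Over all lists built around the 8 genes together, 234 genes were measured, of which 63 rose and 29 fell. That was 39.3%, against 18.0% of all genes, and their median difference was 0.06. The lists, too, were chosen with earlier results of these data known. For other lineages, 6 of 20 measured erythroid markers rose and 2 fell (40.0%). Their summed level ran from 7.77 to 8.28 with MIG and from 7.77 to 8.32 with MIG-Hhex. Tfrc, the transferrin receptor, and Car2, a carbonic anhydrase, made up between 59.6% and 88.8% of the linear sum, and without them it ran from 4.61 to 6.86 with MIG and from 5.08 to 7.01 with MIG-Hhex. The α-globin genes Hba-a1 and Hba-a2, near-identical copies whose reads can be shared, rose by 3.77 (SE 0.32) and 3.67 (SE 0.41) from MIG means of −1.65 and −2.19 (limma adjusted p = 0.00162 and 0.00344). Slc4a1, the red cell anion exchanger, rose by 3.60 (SE 0.80, limma adjusted p = 0.0276) from a MIG mean of −6.05, and this call was lost in 6 of 9 leave-out fits (highest limma adjusted p 0.149) and with an offset of 1 before the log2 (0.25, limma adjusted p = 0.106). These 3 genes are named after their values were seen. Klf1, the erythroid master regulator, rose by 1.21 (SE 0.30), a call lost in 5 of 9 leave-out fits, and the erythropoietin receptor Epor was at 0.76 and missed the threshold (limma adjusted p = 0.0399 and 0.0618). Among 20 macrophage, monocyte and dendritic markers 7 rose and 3 fell, among 20 neutrophil markers 10 rose and 3 fell, and among 25 stem cell and progenitor markers 2 rose and 3 fell. In the smaller lists 2 of 9 eosinophil, 2 of 8 lymphoid and 2 of 8 endothelial and fibroblast markers rose, and 0, 1 and 0 fell. The shares that passed were 22.2%, 37.5% and 25.0% in that order, against 18.0% of all genes. The part of these markers in the results above was not tested.

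Each of the 8 genes has neighbours in profile over the 6 libraries. Nearest to Slc6a4 were Apoc2, an apolipoprotein (root mean square difference 0.303), and the kinase Dapk2 (0.35). Hba-a1 was the fifth nearest to Slc6a4 (0.577). Nearest to Itga2b were Myct1 and Phldb1 (0.112 each), to F2r Mllt6 (0.0783) and Ppp1r26 (0.0991), and to Plek the septin Sept1 (0.0762) and Acot11 (0.0814). Vcl was the second nearest to Serpine2 (0.148), after the glycosyltransferase B3gnt5 (0.136). Pik3ip1 (0.143) and Hmces (0.146) were nearest to Rab27b, Ribc1 (0.131) and Apln (0.139) to Pf4, and Slc48a1, a heme transporter (0.0414), and Vasp, an actin regulator of platelets (0.0441), to Nfe2. With 6 libraries in 2 groups, such likeness describes these libraries only.

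The 8 genes lie on 6 chromosomes and none of them neighbours another. Slc6a4, Itga2b and Plek are all on chromosome 11, at 76998597 to 77032343, 102453297 to 102469883 and 16971206 to 17008718. Serpine2 is on chromosome 1 from 79794317 to 79858665, F2r on chromosome 13 from 95601780 to 95618466, Nfe2 on chromosome 15 from 103248212 to 103258403 and Rab27b on chromosome 18 from 69979131 to 70141633. Of the 16 neighbours (the nearest measured gene on each side), 4 fell and 0 rose, where 8.52% of all genes fell and 9.44% rose. Those that fell were Cnrip1, 43.1 kb from Plek, by 1.33 and Tcf4, 291 kb from Rab27b, by 0.50. Mrpl44, 12.9 kb from Serpine2, fell by 0.27 and Hnrnpa1, 1.51 kb from Nfe2, by 0.25. Each of these 4 lost its call in 4 to 8 of 9 leave-out fits. Plek and Nfe2 thus had a neighbour that went the other way.

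**Figure D3:**
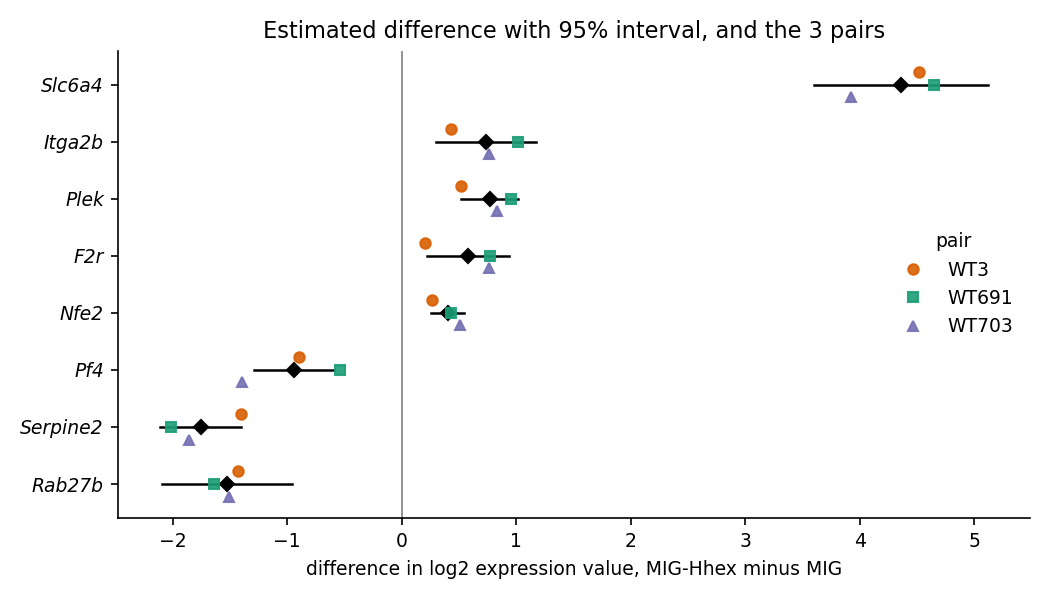
Difference in log2 expression value, MIG-Hhex minus MIG (horizontal axis), of the 8 genes; diamonds and black lines give the limma estimate and its 95% interval, and colored points the 3 replicate pairs. Each of the 24 pair differences had the sign of its gene's estimate, and the WT3 pair was the smallest for Itga2b, Plek, F2r, Nfe2, Serpine2 and Rab27b.

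The flow cell term changed most calls. Without it 2 of the 8 genes passed, Slc6a4 and Serpine2, where 1.78% of all genes did, and the other 6 had limma adjusted p between 0.066 and 0.404. Within flow cell C5LWPANXX alone, which is the same fit as without replicate WT3, 7 of the 8 passed, where 10.0% of all genes did. Itga2b did not (difference 0.89, limma adjusted p = 0.0719). Flow cell C3RJFACXX holds a single pair and gives no test of its own. No direction of the 8 genes changed in any of these fits. The number of higher genes was 5 and fell to 3 without the MIG library of WT703, the MIG-Hhex library of WT691 or the MIG-Hhex library of WT703, and to 2 without replicate WT703. The share of all genes called in these 4 fits was 7.24%, 6.76%, 10.3% and 5.14%.

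**Figure D4:**
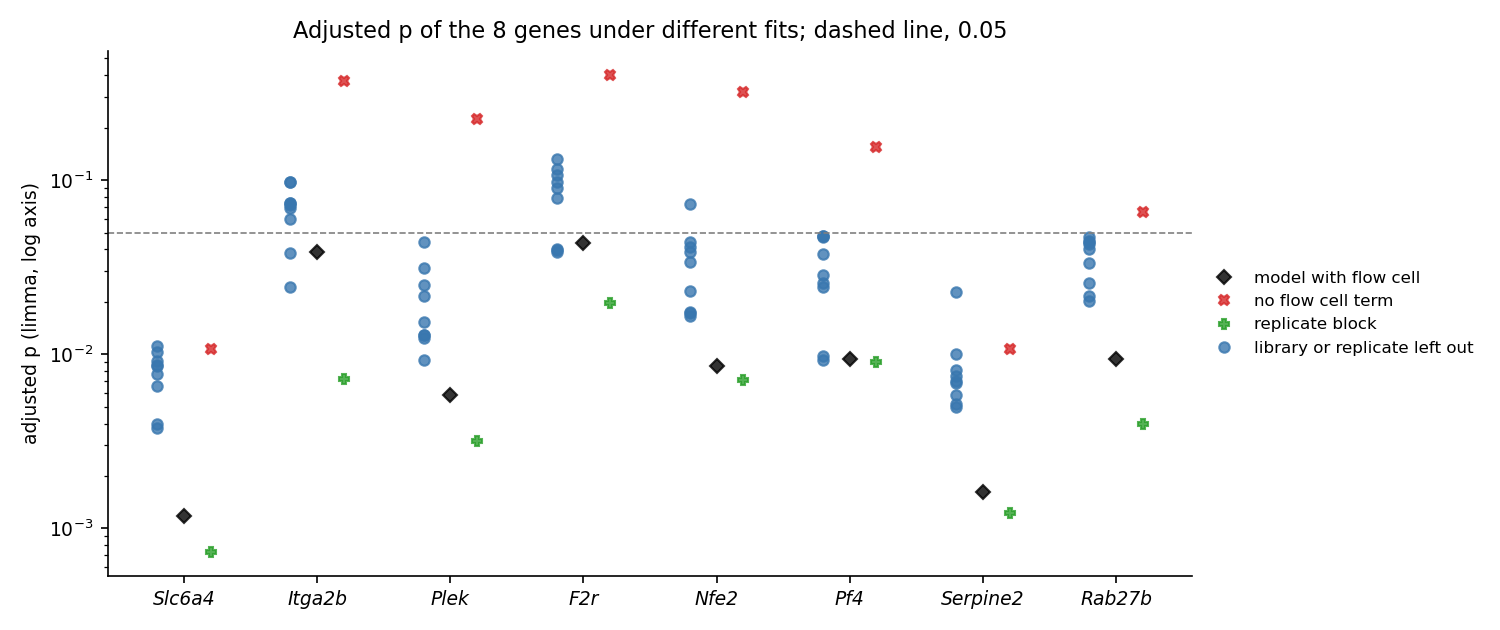
Adjusted p (vertical axis, logarithmic) of the 8 genes in the limma fit with a flow cell term, without it, with a block for the replicate, and with a library or replicate left out; the dashed line is the threshold of 0.05. Without the flow cell term only Slc6a4 and Serpine2 stayed under the line, and in the leave-out fits Itga2b and F2r lay over it most often.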

How the data were processed

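Messenger RNA of 6 libraries was measured by sequencing. The submitters' processing notes name mm10 as the build, and edgeR, limma, featureCounts and Subread as tools, without versions, order or strand setting. The deposited values are log2 expression values normalized by the authors, per the file headers and values, in 1 table of 12161 genes; depth is unknown, so no counting interval is given and no count model was run. The offset of the log2 scale is also unknown, which makes differences of low genes uncertain in size.

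Groups follow the vector label. Vectors were contrasted by limma 3.58.1 (R 4.3.3), with terms for flow cell and vector, eBayes with a trend, two-sided p-values and Benjamini-Hochberg adjustment over all genes. The fit was tested on simulated data. RefSeq genes and promoters of GRCm38.p6, the build of mm10, were matched by Entrez ID (12049 genes). The members and lists were chosen with earlier results of these data known. Genes named are the 8 members, their measured neighbours, the 2 genes nearest in profile, up to 3 genes per direction and list with the smallest p, and fixed small families and markers; others are said to be chosen afterwards. Not every gene the rule takes is described.

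Equal replicate names pair the libraries: deviations from the group means correlated at 0.742 for WT3, 0.585 for WT691 and 0.656 for WT703, against −0.588 to 0.166 between different names. Alternatives were a replicate block, no flow cell term, no trend, a filter on the mean, an offset, other scalings and leaving out libraries. The removal of a GC trend was added after seeing the data. Flow cell C5LWPANXX alone and leaving out replicate WT3 are the same fit, and both are counted among the alternatives.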

Additional observations from a re-analysis of the deposited data

How the results depend on the processing

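The 8 genes kept their direction in each alternative. With a replicate block (pairing the libraries) the counts were again 5 higher and 3 lower, where 24.5% of all genes were called. The block changed no call of the 8 genes, with limma adjusted p = 0.00718 for Itga2b and 0.0197 for F2r. Without the flow cell term 1 gene was higher and 1 lower, with Pf4 at −0.94 (limma adjusted p = 0.154), Itga2b at 0.73 (0.373), F2r at 0.58 (0.404), Plek at 0.77 (0.224), Rab27b at −1.53 (0.066) and Nfe2 at 0.40 (0.319), and over all lists 7 genes were higher and 4 lower in place of 63 and 29; the cause was not tested. Without a trend in eBayes 3 of the 8 were higher, as Itga2b (0.73) and F2r (0.58) missed the threshold. That fit called 11.8% of all genes. Itga2b also missed it within flow cell C5LWPANXX (0.89), which is the same fit as without replicate WT3. With the GC trend removed it missed the threshold too (0.62, limma adjusted p = 0.0584). Leaving out libraries or replicates gave 0.52 to 0.89 for Itga2b, 0.44 to 0.77 for F2r and 0.35 to 0.47 for Nfe2. In these fits 2 to 4 of the 8 were higher, and over all lists 24 to 53 were higher and 12 to 23 lower. Between 5.14% and 12.1% of all genes were called in them. Over all genes, 119 were higher and 98 lower without the flow cell term against 1148 and 1036 with it. The filter on the mean dropped Slc6a4.

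Genes that missed the threshold with differences near 0 could change sign. Leaving out libraries or replicates gave −0.88 to 1.42 for Cxcl3, −0.019 to 0.032 for Iqgap2, −0.153 to 0.026 for Ccdc55, −0.093 to 0.0092 for Cul3, −0.026 to 0.065 for Nfe2l2, −0.045 to 0.019 for Mafk, −0.144 to 0.231 for Slc22a3, −0.037 to 0.0058 for Blmh and −0.0033 to 0.245 for F2rl3. Within flow cell C5LWPANXX Cxcl3 was at 1.42 (limma adjusted p = 0.0412), Iqgap2 at −0.019 and Ccdc55 at 0.026. With the GC trend removed Cxcl3 was at 0.090, Cul3 at 0.085, Blmh at 0.068, Ccdc55 at 0.062 and Maoa at 0.0031. Cxcl3 was at 0.53 with the offset, Blmh at 0.0077 after quantile normalization and Iqgap2 at −0.00034 with libraries centred on their medians. Of other genes that missed the threshold, Cxcl2 passed within flow cell C5LWPANXX (1.17, limma adjusted p = 0.0243), Vwf without a trend (0.51, 0.0440), Epor with the offset (0.50, 0.0433) and F2rl2 without the MIG-Hhex library of WT703 (−0.80, 0.0451).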
